A study of Mus musculus with 3 samples.

Results

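Nitric oxide (NO) signalling was described through 7 genes in endothelial cells (EC) and pericytes of the Peyer's patch (PP), namely *Nos3*, *Nostrin*, *Gucy1a1*, *Gucy1b1*, *Prkg1*, *Pde5a* and *Pde3a*. These are 7 of the 31053 genes counted in all 3 libraries of droplet-based single-cell RNA sequencing, and they were found by their symbols. They were chosen by values of these data, namely because *Gucy1b1* stood higher in capillaries that overexpress COUP-TFII and *Gucy1a1* marks venules. The contrasts that led to this choice are therefore given as descriptions with no test. One library, called control here, is labelled WT with strain C57BL/6. The other 2 libraries, EC-iCOUP_OE replicates 1 and 2, carry the strain label CDH5(PAC)CreERT2;COUP-TFIIOE/OE. In these mice the Cdh5 promoter drives a tamoxifen-inducible Cre in endothelium, and Cre switches on a COUP-TFII (*Nr2f2*) transgene, so that lymphatic as well as blood EC can carry it. Mice were 6 to 10 weeks old, and cells were isolated 14 to 19 days after tamoxifen. Neither the day nor the number of mice is given for each library, and both sexes were processed together. With 1 control library the spread between control samples is not known, and no P value was computed.

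NO is made in endothelium by NO synthase 3 (*Nos3*), and *Nostrin* encodes an adaptor that binds this enzyme and takes part in its trafficking. The receptor for NO is soluble guanylate cyclase, a haem protein made of an alpha and a beta subunit, which *Gucy1a1* and *Gucy1b1* encode. Both subunits are needed for a working enzyme, which makes cyclic GMP. Cyclic GMP activates the kinase encoded by *Prkg1*, phosphodiesterase 5A (*Pde5a*) breaks it down, and it inhibits phosphodiesterase 3A (*Pde3a*), which breaks down cyclic AMP. The pathway is best known for relaxing smooth muscle and pericytes around vessels, and in most vascular beds the mural cells hold the receptor while the endothelium holds the synthase.

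The 2 cyclase genes lie side by side on the same strand. On GRCm38 (GENCODE vM21) *Gucy1a1* (ENSMUSG00000033910) spans chr3:82092427-82145789 on the minus strand and *Gucy1b1* (ENSMUSG00000028005) chr3:82032006-82074689 on the minus strand, with 17737 bases between them. *Nos3* (ENSMUSG00000028978) lies at chr5:24364810-24384474 on the plus strand and *Nostrin* (ENSMUSG00000034738) at chr2:69135800-69189330 on the plus strand. *Prkg1* (ENSMUSG00000052920) spans chr19:30564489-31765033 on the minus strand. *Pde5a* (ENSMUSG00000053965) spans chr3:122728947-122859374 and *Pde3a* (ENSMUSG00000041741) chr6:141249269-141507448, both on the plus strand. The bases just upstream of a transcription start are printed below for the 3 genes that were higher in EC-iCOUP_OE capillaries or progenitors, since the transgene encodes a DNA-binding factor. They come from RefSeq on GRCm38.p6, and each run reads 5′ to 3′ on the strand of its gene and ends at the base before the start. For *Gucy1b1* it covers chr3:82074712-82074961 and for *Nostrin* chr2:69135550-69135799, all upstream of annotated exons. For *Gucy1a1* only the 189 bases of the window that lie outside annotated exons are shown, at chr3:82145074-82145262. That start lies inside the gene's span, so these bases are intronic for transcripts that begin further upstream. Capitals mark the letters of a motif that was searched on both strands.
Gucy1a1: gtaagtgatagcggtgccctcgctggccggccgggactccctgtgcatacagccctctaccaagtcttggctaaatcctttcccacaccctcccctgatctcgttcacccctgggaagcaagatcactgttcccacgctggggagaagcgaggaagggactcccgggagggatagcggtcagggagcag
Gucy1b1: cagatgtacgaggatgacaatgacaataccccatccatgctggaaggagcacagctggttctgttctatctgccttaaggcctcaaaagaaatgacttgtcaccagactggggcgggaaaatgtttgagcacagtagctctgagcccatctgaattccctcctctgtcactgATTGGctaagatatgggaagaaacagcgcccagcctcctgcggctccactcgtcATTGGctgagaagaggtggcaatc
Nostrin: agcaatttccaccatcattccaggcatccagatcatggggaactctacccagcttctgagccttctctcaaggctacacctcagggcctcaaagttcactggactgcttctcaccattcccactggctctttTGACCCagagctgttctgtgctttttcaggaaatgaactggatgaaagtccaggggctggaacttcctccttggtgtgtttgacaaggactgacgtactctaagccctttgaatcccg
The *Gucy1b1* run held the inverted CCAAT box ATTGG 78 and 24 bases before the start. Of 32851 upstream windows of 250 bases in RefSeq, 33.8% held CCAAT or ATTGG and 10.1% held 2 or more. The *Nostrin* run held TGACCC, the reverse complement of the nuclear receptor half-site GGGTCA that COUP-TF proteins can bind, 118 bases before the start, and 11.6% of all windows held either form. A window of *Prkg1* that is not printed also held GGGTCA, 221 bases before its start. *Prkg1* had too few UMIs to compare with control. A further *Gucy1a1* window, also not printed, held none of the searched motifs. Neither GGGTCA nor AGGTCA, which 14.0% of windows held on either strand, was found in the printed runs of the cyclase genes. The shorter form GGTC(A/G), with which the paper screened the genome, was not searched. The printed *Gucy1a1* run holds ggtca near its end, and the share of windows with that form was not counted. These matches describe letters only.

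Each library counts unique molecular identifiers (UMIs), which stand for captured RNA molecules. The control library held 6080 barcodes and 17341398 UMIs, EC-iCOUP_OE replicate 1 held 4959 barcodes and 17417260 UMIs, and replicate 2 held 1441 barcodes and 3548983 UMIs. Control and replicate 2 shared 12 barcodes, of which 10 were kept cells, and replicate 1 shared none with either. The labels name more than one version of the library chemistry, and the first listed barcode of replicate 1 opens with other bases than those of control and replicate 2, which open alike. Replicate 1 may therefore differ from the control library in chemistry as well, and in each ratio of replicate 1 to control chemistry and genotype cannot be told apart. Blood EC numbered 2427, 3413 and 987 cells in control, replicate 1 and replicate 2, and this order of the libraries is kept below. Cells were clustered without the 7 genes, *Nr2f2* and the other NO and cyclic GMP genes. Each cluster was named only as like a known subset, by fixed markers and by the study's own subset labels. The capillary-like class (PP CapEC) held 973, 1080 and 517 cells, postcapillary venules (PCV) 408, 742 and 92, and high endothelial cells (HEC) 438, 106 and 4. Capillary resident progenitors (CRP) numbered 128, 195 and 73 and arterial EC 282, 103 and 37. Pericytes numbered 26, 48 and 45 cells and smooth muscle cells 39, 53 and 41. A further 176, 1048 and 243 blood EC fell in clusters without a name. Of these, clusters 3, 11 and 14 had marker names that the study's labels did not share. There 295 of 297, 72 of 72 and 25 of 25 labelled cells were PP CapEC in the study. These clusters are not counted in PP CapEC here. Levels are given as CPM, the UMIs of a gene divided by all UMIs of the class and library and multiplied by 1000000, with exact Poisson 95% intervals that cover counting error only. They are 3′ counts without correction for length or capture, so levels of different genes are not compared as amounts.

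The labels were checked by *Nr2f2*. In PP CapEC it stood at 13.4 CPM in the control library (24 UMIs), at 2012 CPM in replicate 1 and at 1186 CPM in replicate 2. It was also higher in EC-iCOUP_OE PCV, where the log2 ratios to control were 2.91 and 2.66. Outside the endothelium, pericytes held 473, 1076 and 616 CPM, and a small leucocyte cluster held 0, 639 and 168 CPM (0, 96 and 1 UMIs). Control and EC-iCOUP_OE capillaries lay mostly in different clusters. Of the control PP CapEC, 443 cells lay in cluster 2, 394 in cluster 6 and 120 in cluster 13, whereas EC-iCOUP_OE replicate 1 had 540 in cluster 1 and 324 in cluster 10 and replicate 2 had 288 in cluster 1 and 152 in cluster 2. Clusters 2 and 6 had *Esm1*, a progenitor marker, among their leading genes, and they kept the capillary name because 199 of 202 and 29 of 30 labelled cells carried that label in the study. In the clusters named arterial EC and CRP by their markers the study's labels differed, with 54 of 65 and 58 of 136 labelled cells labelled PP CapEC. All labelled cells that were used came from EC-iCOUP_OE libraries. Cluster 10 was led by haemoglobin genes such as *Hba-a2*, and *Gucy1b1* was among its leading genes, as *Gucy1a1* was in PCV cluster 8, although neither gene was used to form the clusters. The pericyte class held the pericyte markers *Rgs5* and *Pdgfrb* (514, 403 and 346 CPM of *Pdgfrb*), but also smooth muscle markers, whose 6 genes summed to 8632, 17620 and 13614 CPM, and *Abcc9* was at 0 in control and replicate 2.

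**Figure D1:**
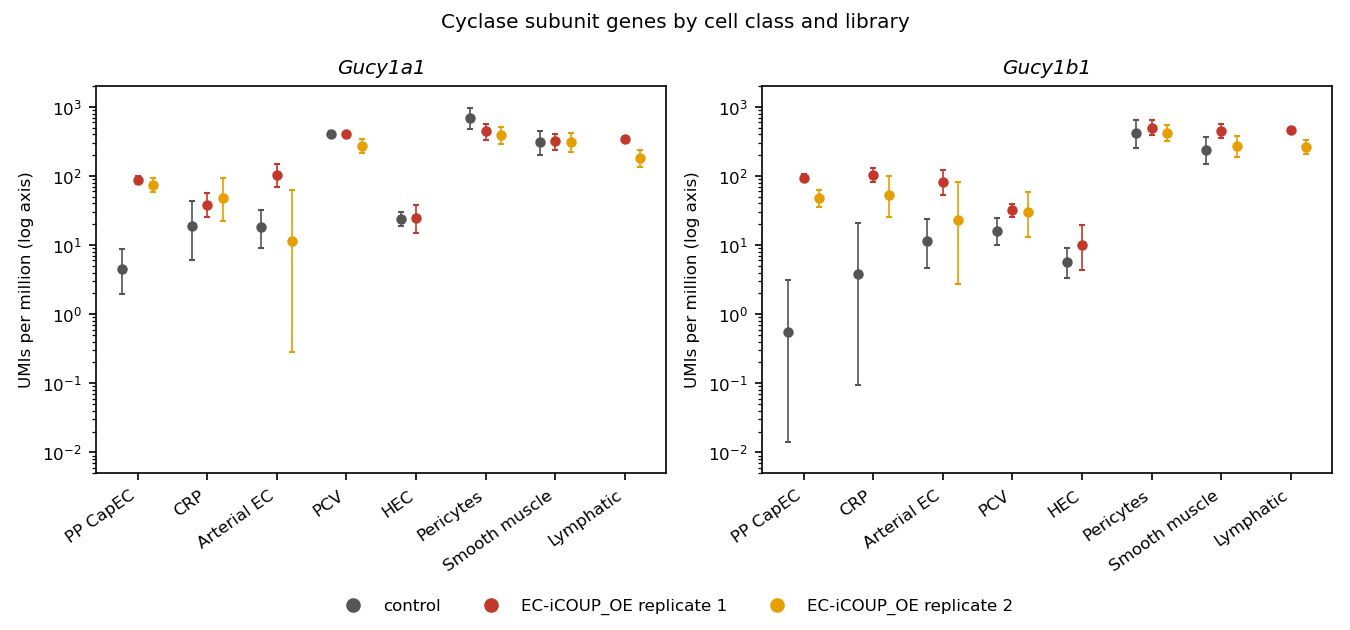
Levels of *Gucy1a1* and *Gucy1b1* in CPM (log axis) for each cell class and library with at least 10 cells; points are the pooled level and bars its exact Poisson 95% interval. *Gucy1b1* in PP CapEC lay at 0.56 CPM in the control library and at 94.5 and 47.8 CPM in EC-iCOUP_OE, while *Gucy1a1* in PCV lay between 273 and 406 CPM in all 3 libraries.

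Among the blood EC classes *Gucy1a1*, the alpha subunit gene, was highest in PCV in every library. It was not confined to vessels, since 38.6% of 2090 control fibroblasts held it without thinning (1194 UMIs). In the control epithelium class 50.6% of 247 cells held it (230 UMIs). That class was mixed, since 246 of its cells held a smooth muscle marker UMI and 227 a pericyte marker UMI. These markers summed to 2183 and 1334 CPM, so the value cannot be assigned to epithelial cells. PCV held 405 CPM in the control library (528 UMIs, 95% interval 371 to 441), 406 CPM in replicate 1 (1252 UMIs, 384 to 429) and 273 CPM in replicate 2 (73 UMIs, 214 to 343). The control and replicate 1 levels were equal within counting error, and replicate 2 was lower than both. HEC, the other venular class, held only 23.7 and 24.9 CPM in control and replicate 1, which left PCV above HEC by 4.10 and 4.03 on the log2 scale. In control arterial EC and CRP the gene stood at 18.3 and 18.8 CPM (11 and 5 UMIs). In control PP CapEC it was close to absent, at 4.47 CPM from 8 UMIs (1.93 to 8.81).

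The PCV level of *Gucy1a1* exceeded that of PP CapEC by 6.50 on the log2 scale in the control library (counting interval 5.51 to 7.72), by 2.23 in replicate 1 (2.02 to 2.43) and by 1.88 in replicate 2 (1.40 to 2.35). Of 7007 genes compared between these classes, 191 (2.73%) were at least 2-fold higher in PCV in all 3 libraries and 166 (2.37%) at least 2-fold lower, and *Gucy1a1* ranked 74th by its smallest ratio. The narrower gap in EC-iCOUP_OE came with a higher capillary level, and in replicate 2 also with a lower venular one. PP CapEC held 86.8 CPM in replicate 1 (237 UMIs, 76.1 to 98.5) and 74.4 CPM in replicate 2 (84 UMIs, 59.3 to 92.1). These are 19.4-fold and 16.6-fold the control level, or 4.28 and 4.06 on the log2 scale (mean 4.17 ± 0.16, SD of 2 libraries). Both EC-iCOUP_OE libraries lay far above the control library and close to each other.

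*Gucy1b1*, the beta subunit gene, had the larger point ratio in capillaries. Its control count is too low to rank its step against that of *Gucy1a1*. In control PP CapEC 1 UMI was counted in 973 cells, or 0.56 CPM (0.014 to 3.11). Replicate 1 held 258 UMIs, or 94.5 CPM (83.3 to 107), and replicate 2 held 54 UMIs, or 47.8 CPM (35.9 to 62.4). The log2 ratios were 7.40 (counting interval 4.91 to 12.71) and 6.42 (3.88 to 11.75), with a mean of 6.91 ± 0.69. The ratio rests on that 1 control UMI. Its lower counting limits cover counting error only, and not the different clusters in which control and EC-iCOUP_OE capillaries mostly lay. To be called, a gene had to differ from the control library by 2-fold or more, in the same direction, in each of the EC-iCOUP_OE libraries. A total of 6469 genes reached 50 UMIs in the PP CapEC of a library, and of these 252 (3.9%) were called higher and 167 (2.58%) lower. Of the 4 member genes that passed this filter 2 were called, *Gucy1b1* at rank 3 and *Gucy1a1* at rank 16 by the smaller of the 2 ratios. Since this contrast helped to choose the genes, nothing is read from that share. Both called genes passed the filter only through the EC-iCOUP_OE libraries, where they were high.

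The step was unequal between clusters. In cluster 2, the one PP CapEC cluster with at least 50 cells of each library, *Gucy1b1* stood at 1.2, 9.0 and 7.0 CPM (1, 3 and 2 UMIs) and *Gucy1a1* at 4.6, 6.0 and 10.5 CPM (4, 2 and 3 UMIs). In that cluster the mean log2 ratio of *Gucy1b1* was 2.77 and that of *Gucy1a1* 0.77, the latter under 2-fold in replicate 1, and neither gene reached 50 UMIs. *Nr2f2* stood at 4.6 CPM in its control cells and at 733 and 506 CPM in EC-iCOUP_OE, which is below the EC-iCOUP_OE levels of the other large capillary clusters. In cluster 1, replicate 1 and replicate 2 held 102 and 63.8 CPM of *Gucy1b1* and 100 and 95.7 CPM of *Gucy1a1*. In cluster 10 they held 130 and 73.3 CPM of *Gucy1b1* and 109 and 138 CPM of *Gucy1a1*. Clusters 1 and 10 had 7 and 9 control cells, too few to compare. In cluster 2 the 2 cyclase genes were thus low in all 3 libraries, and within PP CapEC their high levels lay in clusters 1 and 10. The unnamed cluster 11, whose labelled cells were all PP CapEC in the study, also had at least 50 cells of each library (111, 78 and 56). It held 1, 5 and 4 UMIs of *Gucy1b1* and 1, 6 and 0 of *Gucy1a1*.

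**Figure D2:**
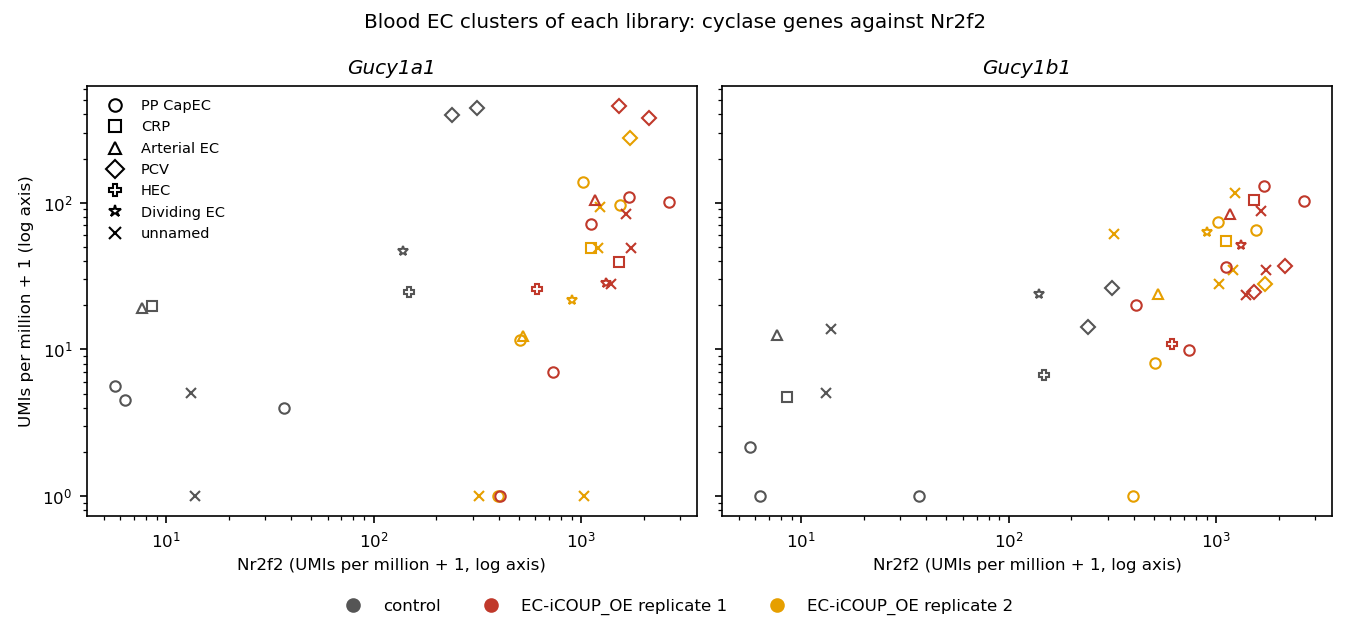
Level of *Gucy1a1* (left) and *Gucy1b1* (right) against *Nr2f2* in each blood EC cluster of each library with at least 20 cells, in CPM plus 1 on log axes; shape gives the class and colour the library. Control capillary clusters sit at the lower left and EC-iCOUP_OE clusters 1 and 10 at the upper right, whereas in the left panel the control PCV clusters stand at about 400 CPM of *Gucy1a1* with 239 and 313 CPM of *Nr2f2*.

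Within EC-iCOUP_OE capillaries, cells with 3 or more *Nr2f2* UMIs held more of both cyclase transcripts than cells with 0. In replicate 2 *Gucy1b1* stood at 14.8, 26.1, 40.0 and 71.1 CPM in cells with 0, 1, 2 and 3 or more *Nr2f2* UMIs, and *Gucy1a1* at 29.5, 57.3, 60.1 and 103 CPM. In replicate 1 *Gucy1b1* stood at 43.4, 47.2, 108 and 104 CPM and *Gucy1a1* at 17.4, 42.9, 58.1 and 103 CPM. Cells with 0 *Nr2f2* UMIs numbered 115 and 113 and had median depths of 1791 and 1665 UMIs against 2430 and 2407 in cells with 3 or more. Depth moved with these bins. They also pool cluster 2, lower in *Nr2f2* and in both cyclase genes, with clusters 1 and 10. The parts of depth and of the mix of clusters in the trend were not tested.

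The subunits differed in where they stood beside the venule. In control PCV the beta gene held 16.1 CPM (21 UMIs) beside 405 CPM of the alpha gene, and in EC-iCOUP_OE PCV it held 31.8 and 29.9 CPM (98 and 8 UMIs). The log2 ratios of *Gucy1b1* to control in PCV were 0.98 (0.29 to 1.74) and 0.89 (−0.49 to 2.13), just under the 2-fold rule, and none of the 4 member genes tested in PCV was called, against 3.17% of 6590 genes called higher and 1.65% lower. In control the beta gene stood higher in PCV than in PP CapEC by 4.85 on the log2 scale (2.21 to 10.22). In EC-iCOUP_OE this order was turned, with log2 ratios of −1.57 (−1.92 to −1.23) in replicate 1 and −0.68 (−1.96 to 0.40) in replicate 2, of which the second interval includes 0.

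The share of cyclase UMIs that came from *Gucy1b1* differed between classes in all libraries. In PCV it was 3.83% (Clopper-Pearson 95% interval 2.38 to 5.79), 7.26% (5.93 to 8.78) and 9.88% (4.36 to 18.5). In pericytes it was 37.0%, 53.2% and 51.9%, and the PCV and pericyte intervals did not overlap in any library. PP CapEC of EC-iCOUP_OE had 52.1% (47.6 to 56.6) and 39.1% (30.9 to 47.8), near the pericyte share and far from the PCV share. Such shares were not particular to pericytes. Smooth muscle had 43.8%, 58.7% and 46.7%, and lymphatic EC of EC-iCOUP_OE had 57.9% and 58.9%. Arterial EC of control and replicate 1 had 38.9% and 44.4%, whereas HEC of these libraries had 19.4% and 28.6%. The control PP CapEC share of 11.1% came from 9 UMIs and spans 0.28 to 48.2%. CRP of replicate 1 had the highest share among the plotted classes with over 20 cyclase UMIs, at 72.9% (62.9 to 81.5).

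**Figure D3:**
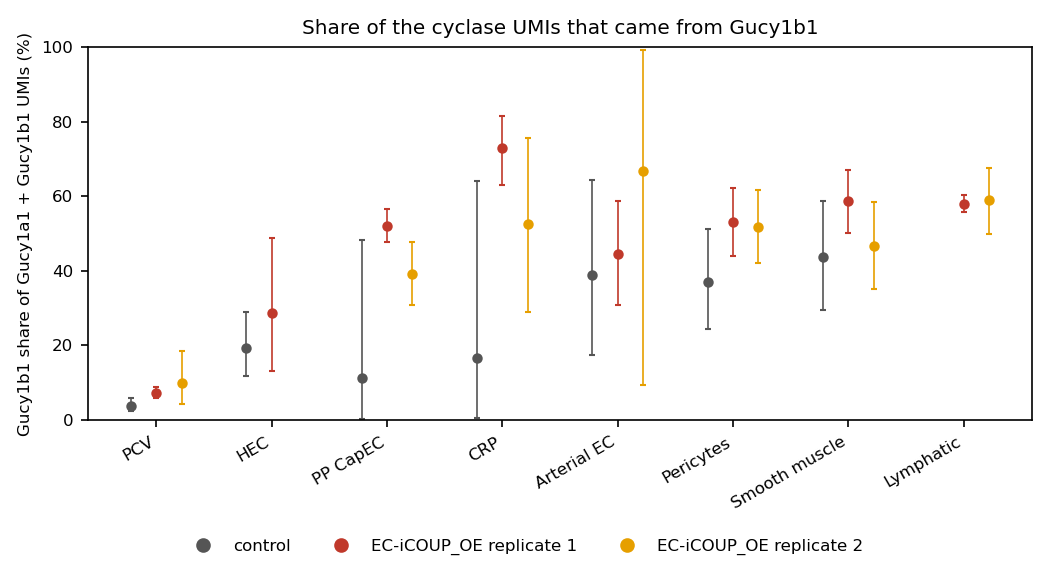
Percentage of the *Gucy1a1* and *Gucy1b1* UMIs that came from *Gucy1b1* in each class and library with at least 10 cells, with Clopper-Pearson 95% intervals. PCV lies under 10% in all 3 libraries, and pericytes, smooth muscle and EC-iCOUP_OE PP CapEC lie between 37.0% and 58.7%.

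Shares of cells with a UMI were compared at equal depth, at which cells without a UMI cannot be taken to lack the transcript. After each cell was thinned to 1000 UMIs, 0.10% of control PP CapEC held a *Gucy1b1* UMI (0.0026 to 0.57), 8.24% in replicate 1 (6.67 to 10.0) and 4.06% in replicate 2 (2.53 to 6.14). Without thinning these shares were 0.10%, 17.5% and 8.70%, at median depths of 1490, 2205.5 and 2095 UMIs. For *Gucy1a1* the thinned shares were 0.41%, 5.56% and 6.00%. Both genes were found together in 0, 9 and 2 thinned cells, against 4, 51 and 29 with *Gucy1a1* alone and 1, 80 and 19 with *Gucy1b1* alone. In PCV the thinned share of cells with *Gucy1a1* was 31.1%, 32.5% and 18.5%, and that with *Gucy1b1* 2.45%, 3.77% and 3.26%. In pericytes these shares were 57.7%, 45.8% and 31.1% for *Gucy1a1* and 34.6%, 35.4% and 31.1% for *Gucy1b1*.

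As a check of free RNA, cells that should lack the cyclase were counted the same way. In the control library 0 of 199 enteric glia held either gene after thinning (median depth 1367 UMIs), which allows a share of up to 1.51%. No lymphocyte cluster was named. The leucocyte cluster, led by basophil and mast cell genes such as *Mcpt8* and *Cpa3*, held 30 cells in replicate 1 (median depth 4177.5 UMIs), and after thinning 1 cell had a UMI of *Gucy1a1* and 1 cell a UMI of *Gucy1b1*, a share of 3.33% (0.084 to 17.2) for each. At this number of cells the shares in PP CapEC cannot be told from that background. Its level was 59.9 CPM of *Gucy1b1* (9 UMIs, 27.4 to 114) and 33.3 CPM of *Gucy1a1* (5 UMIs, 10.8 to 77.7), and 13.3% of its cells held each gene without thinning. All of these UMIs lay in the same 4 cells, each with both genes, and 26 cells held neither. The 13 pericyte marker UMIs of this cluster lay in 1 cell and its 28 smooth muscle marker UMIs in 2 cells, so that a few cells carry its values. Free RNA of the cyclase genes at the level of EC-iCOUP_OE capillaries is therefore not bounded by these 30 cells. Inside the endothelium of the same library HEC held 9.95 CPM of *Gucy1b1* (8 UMIs, 4.29 to 19.6) and cluster 2 held 9.0 CPM (1.9 to 26.2), both under the PP CapEC interval. These HEC had a median depth of 6734.5 UMIs against 2205.5 in PP CapEC, so their CPM is not a like background. The part of free RNA in the capillary levels was not tested.

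Markers of other cells rich in the cyclase were low in the capillaries. The 8 pericyte markers summed to 22.9, 4.76 and 4.43 CPM in PP CapEC against 5878, 4213 and 3899 CPM in pericytes, with 3, 5 and 6 of them at 0 in PP CapEC, *Pdgfrb* in all 3 libraries. The 6 smooth muscle markers summed to 9.50, 12.4 and 21.3 CPM. In cells with no UMI of any of these markers (931, 1049 and 491 cells) there were 0, 247 and 52 UMIs of *Gucy1b1*, and *Gucy1a1* stood at 4.1, 88.3 and 75.5 CPM. Lymphatic EC, which held 467 and 262 CPM of *Gucy1b1* and 339 and 183 CPM of *Gucy1a1* in EC-iCOUP_OE, were nearly missing from the control library (4, 899 and 126 cells). The 4 control cells held *Pdpn* but no UMI of *Prox1*, *Lyve1*, *Mmrn1*, *Flt4* or *Reln*. Fibroblast markers summed to 22182 CPM in them, so the lymphatic name is not borne out there. The 6 lymphatic markers summed to 48.6, 75.8 and 77.9 CPM in PP CapEC against 10521 and 7906 CPM in lymphatic EC, and most of these capillary UMIs were *Flt4* (84, 166 and 65). Of the others in PP CapEC, *Lyve1* stood at 0.56, 8.79 and 6.20 CPM and *Mmrn1* at 0, 4.39 and 5.31 CPM. *Prox1* stood at 0.56, 0.73 and 7.97 CPM, so that all of these moved with *Gucy1b1* at low levels. *Pdpn* and *Reln* had at most 2 UMIs in any library. For each 100 lymphatic marker UMIs, lymphatic EC held 4.44 and 3.31 UMIs of *Gucy1b1* and PP CapEC of the same libraries held 125 and 61.4. Leaving out capillary cells with a lymphatic marker UMI other than *Flt4*, an alternative chosen after seeing the data, gave a mean log2 ratio of 6.86. Fibroblasts, which held 1194 and 533 UMIs of *Gucy1a1* and *Gucy1b1* in control, numbered 2090, 6 and 5 cells. Their 6 markers summed to 86.7, 0 and 6.20 CPM in PP CapEC. The part of RNA from other cells in the capillary levels was not tested.

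CRP showed the same direction for the beta gene. They held 3.8, 104 and 53.8 CPM of *Gucy1b1* (1, 70 and 10 UMIs), with log2 ratios of 4.78 (2.26 to 10.11) and 3.84 (1.02 to 9.28). The gene was called higher there as were 5.81% of 2308 genes (2.95% were called lower). It passed the filter in CRP only through replicate 1, where it was high, so the call is a description only. At a finer clustering (Louvain resolution 1.6) the control CRP were 20 cells with 0 UMIs and the call was lost. Mural and lymphatic markers moved with it. The smooth muscle markers in CRP summed to 18.8, 114 and 59.2 CPM and the pericyte markers to 26.4, 59.2 and 69.9 CPM, with *Pdgfrb* at 0 in all 3 libraries. The 6 lymphatic markers summed to 45.2, 166 and 80.7 CPM, with 5, 3 and 3 of them at 0. The part of these markers in the CRP result was not tested. The unnamed blood EC held 4.8, 60.8 and 45.2 CPM of *Gucy1b1*, but in different clusters, since control had 111 of its 176 cells in cluster 11 and 38 in cluster 14 and replicate 1 had 543 of 1048 in cluster 3 and 418 in cluster 5. Their lymphatic markers summed to 40.8, 147 and 71.7 CPM, and cluster 5 was led by *Colec12* and also by *Lyve1*, so this pool was not compared between groups. In arterial EC replicate 1 stood at 82.1 CPM (24 UMIs) above the control library at 11.6 CPM (7 UMIs), and replicate 2 had 2 UMIs in 37 cells, so that no call was possible. Pooled over all blood EC, in which the mix of classes differs, the log2 ratios were 3.08 and 2.68 for *Gucy1b1* and 0.83 and −0.06 for *Gucy1a1*.

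In pericytes both subunits were high and neither was called. *Gucy1a1* stood at 699 CPM in the control library (34 UMIs, 484 to 976), 441 CPM in replicate 1 (59 UMIs, 335 to 568) and 391 CPM in replicate 2 (52 UMIs, 292 to 512), which gave log2 ratios of −0.67 and −0.84. *Gucy1b1* stood at 411 CPM (20 UMIs), 500 CPM (67 UMIs) and 421 CPM (56 UMIs), and its 3 intervals overlapped. The 2 member genes that could be tested in pericytes were thus not called, against 6.82% of 469 genes called higher and 0.64% called lower. Smooth muscle cells held 307, 315 and 309 CPM of *Gucy1a1* and 239, 448 and 271 CPM of *Gucy1b1*. The control class included 17 cells of a cluster found only there, at 206 and 184 CPM. In the cluster that all libraries shared, *Gucy1a1* stood at 406 CPM (241 to 642), 315 CPM and 309 CPM and *Gucy1b1* at 294 CPM (156 to 502), 448 CPM and 271 CPM, so that both EC-iCOUP_OE libraries lay below control for *Gucy1a1*, with overlapping intervals. Pericytes and PCV held near levels of *Gucy1a1*, with log2 ratios of 0.79, 0.12 and 0.52, of which the latter 2 had intervals that include 0. For *Gucy1b1* pericytes exceeded PCV by 4.67, 3.98 and 3.81. In EC-iCOUP_OE the pericyte level of *Gucy1b1* remained above that of PP CapEC by 2.41 and 3.14, compared with 9.52 in control. The control value sets 20 pericyte UMIs against 1 UMI in PP CapEC, so its size is poorly known.

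*Nos3*, the NO synthase gene, stood in blood EC of all libraries. In control it stood at 103 CPM in arterial EC, 94.3 CPM in PCV, 79.1 CPM in CRP, 67.6 CPM in PP CapEC and 16.4 CPM in HEC. The intervals of the first 4 overlapped, and HEC lay under all of them. In replicate 1 the order was wider, with arterial EC at 95.8 CPM (63.7 to 138) above PP CapEC at 34.8 CPM (28.1 to 42.5), and CRP at 23.7 CPM near HEC at 18.7 CPM. Replicate 2 had 68.1 CPM in arterial EC and 21.5 CPM in CRP, from 6 and 4 UMIs. Smooth muscle cells held 0 UMIs in each library and pericytes 2, 1 and 0. In PP CapEC *Nos3* stood at 67.6 CPM in control (121 UMIs, 56.1 to 80.8), 34.8 CPM in replicate 1 (95 UMIs, 28.1 to 42.5) and 39.9 CPM in replicate 2 (45 UMIs, 29.1 to 53.3). Both EC-iCOUP_OE libraries lay below the control library, with log2 ratios of −0.96 and −0.76, but under the 2-fold rule the gene was not called. PCV showed a similar size, with 94.3, 54.4 and 52.4 CPM and log2 ratios of −0.79 and −0.85. In CRP the ratios were −1.74 and −1.88 at 21, 16 and 4 UMIs, too few for a call, and in arterial EC they were −0.10 and −0.60. *Nos3* was the 1 member tested in arterial EC and was not called, where 1.81% of 2096 genes were called higher and 2.72% lower.

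*Nostrin*, the adaptor of NO synthase, stood in blood EC, with at most 3 UMIs in pericytes or smooth muscle of any library and 3.52 CPM (8 UMIs) in lymphatic EC of replicate 1. In PP CapEC it stood at 102 CPM in control (182 UMIs), 202 CPM in replicate 1 (552 UMIs) and 161 CPM in replicate 2 (182 UMIs). Both EC-iCOUP_OE libraries lay above the control library, by 0.99 (0.75 to 1.24) and 0.66 (0.36 to 0.97) on the log2 scale, and the gene missed the 2-fold rule. In CRP it stood at 37.7, 187 and 145 CPM (10, 126 and 27 UMIs) and was called higher, with log2 ratios of 2.31 (1.38 to 3.40) and 1.95 (0.86 to 3.16). Of 2308 genes tested in CRP, 5.81% were called higher and 2.95% lower. *Nostrin* passed the filter there only through replicate 1, where it was high. In PCV it held 67.4, 132 and 89.7 CPM and was not called. HEC held 39.4 CPM in control and 134 CPM in replicate 1, a log2 ratio of 1.77, which has no second library since replicate 2 had 4 HEC. Over all blood EC, in which the mix of classes also differs, the log2 ratios of *Nostrin* were 1.43 and 1.19.

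**Figure D4:**
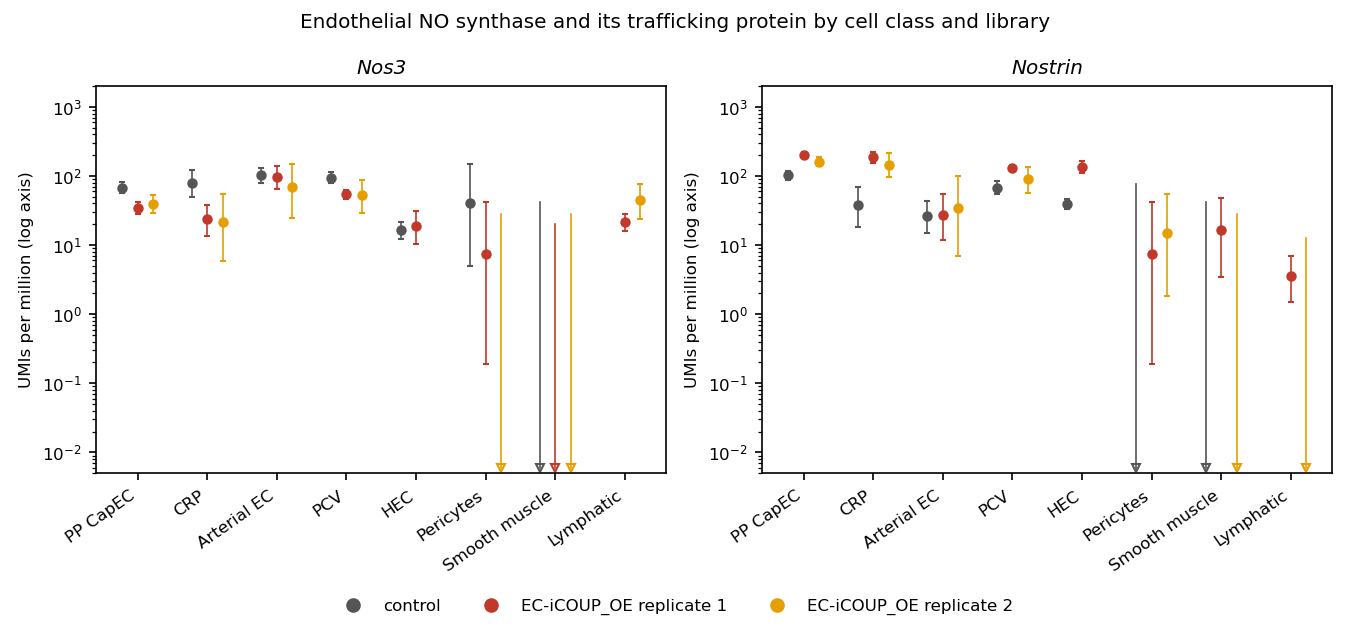
Levels of *Nos3* (left) and *Nostrin* (right) in CPM on a log axis by class and library with at least 10 cells, with exact Poisson 95% intervals; an open triangle marks 0 UMIs with a line up to the upper limit. In PP CapEC *Nos3* stands at 67.6 CPM in control and at 34.8 and 39.9 CPM in EC-iCOUP_OE, and *Nostrin* at 102 CPM and at 202 and 161 CPM.

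*Prkg1*, the cyclic GMP-dependent kinase gene, was scarce in endothelium at this depth. PP CapEC held 2, 8 and 3 UMIs and PCV 12, 21 and 2 UMIs, which is 9.20, 6.80 and 7.48 CPM in PCV. Pericytes held 0, 12 and 2 UMIs (0, 89.6 and 15.0 CPM), so that the gene was not detected in the 26 control pericytes, with an exact upper limit of 75.8 CPM. Smooth muscle cells held 45.5, 49.8 and 30.9 CPM from 4, 9 and 4 UMIs, with overlapping intervals. No comparison with control could be made in any class.

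Between the mural and blood EC classes, the phosphodiesterase genes stood mainly in the mural ones. Their levels in fibroblasts, lymphatic EC and other classes are not given here. *Pde5a* stood at 103, 112 and 90.2 CPM in pericytes (5, 15 and 12 UMIs) and at 182, 122 and 108 CPM in smooth muscle cells (16, 22 and 14 UMIs). PP CapEC held 3.35, 5.86 and 8.86 CPM (6, 16 and 10 UMIs) and PCV 1, 3 and 1 UMIs. *Pde3a* stood at 370, 232 and 316 CPM in pericytes (18, 31 and 42 UMIs), with overlapping intervals, and at 4, 0 and 1 UMIs in PP CapEC. In smooth muscle cells it held 125 CPM in control (11 UMIs, 62.5 to 224), 448 CPM in replicate 1 (81 UMIs, 356 to 557) and 495 CPM in replicate 2 (64 UMIs, 381 to 632). The log2 ratios were 1.84 (0.92 to 2.90) and 1.98 (1.05 to 3.06), and *Pde3a* was called higher there, as were 6.19% of 582 genes. The gene passed the filter there only through the EC-iCOUP_OE libraries. The control class held 17 cells of a cluster that no other library had, led by *Adamdec1* and *Hhip*, with 1 *Pde3a* UMI. In the cluster that all libraries shared (22, 53 and 41 cells) the levels were 226, 448 and 495 CPM, with log2 ratios of 0.99 and 1.13. There replicate 1 came just under 2-fold, the control interval (108 to 415) overlapped those of EC-iCOUP_OE, and the call did not hold in this comparison, which was chosen after seeing the data. The sums of the 6 smooth muscle markers in the whole class were 25387, 32665 and 26237 CPM. Over all mural cells, including an unnamed cluster, the log2 ratios of *Pde3a* were 0.43 and 1.11. That cluster had *Sox17* and the blood EC marker *Flt1* among its leading genes. It held 59 of 124, 96 of 197 and 3 of 89 mural cells, so these ratios compare different mixes.

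**Figure D5:**
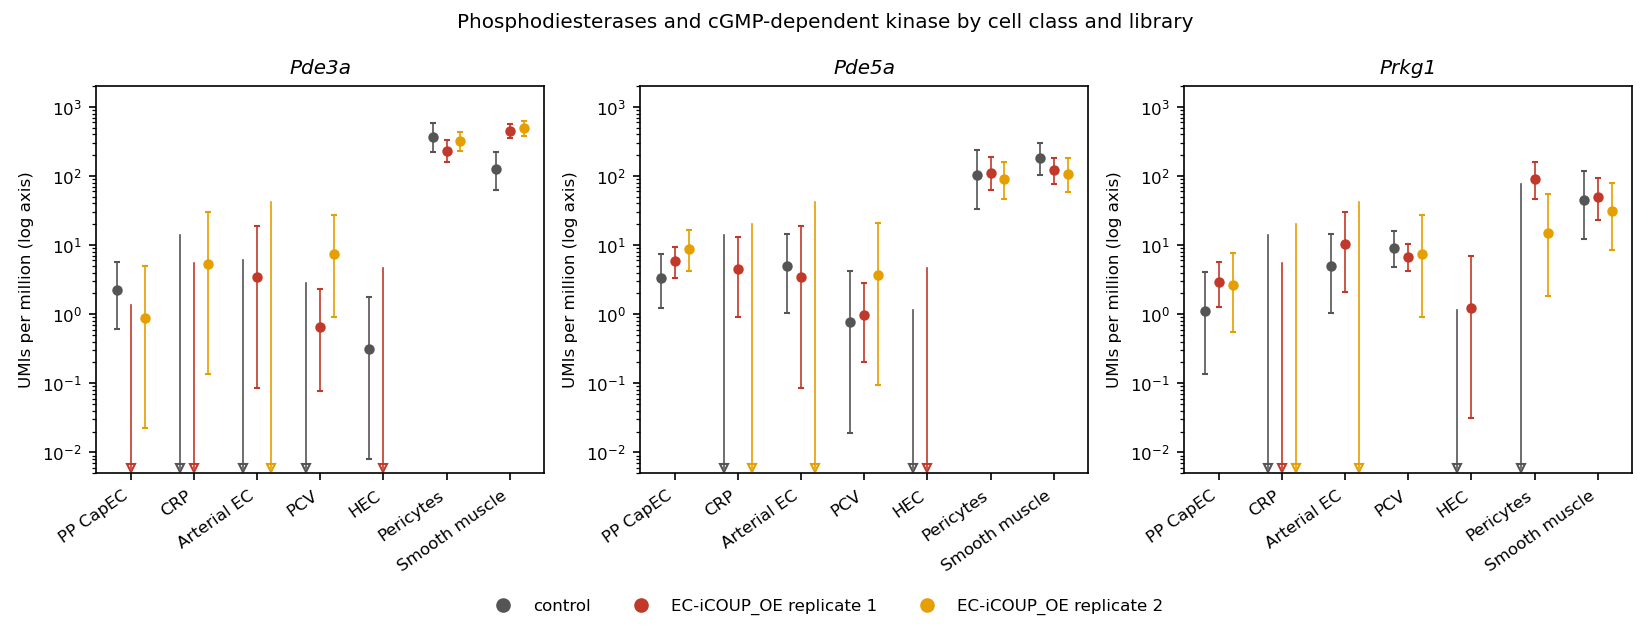
Levels of *Pde3a*, *Pde5a* and *Prkg1* in CPM on a log axis by class and library with at least 10 cells, with exact Poisson 95% intervals; open triangles mark 0 UMIs with a line up to the upper limit. The phosphodiesterases stand above 90 CPM in pericytes and smooth muscle and under 10 CPM in the blood EC classes, and *Pde3a* in smooth muscle stands at 125 CPM in control, where 17 of 39 cells came from a control-only cluster, and at 448 and 495 CPM in EC-iCOUP_OE.

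Of the rest of the pathway, 50 further NO and cyclic GMP genes were listed and all were measured. In PP CapEC 23 of them passed the filter, 0 were called higher and 1 lower (3.9% and 2.58% of all genes tested), with a median of the mean log2 ratios of −0.23 against −0.05 over all 6469 genes tested. The one called was *Ddah2*, listed among the genes of arginine and cofactor supply, at 596, 226 and 228 CPM (log2 ratios −1.40 and −1.39). Among the most abundant genes of the list in control PP CapEC were partners of NO synthase. The chaperone gene *Hsp90ab1* stood at 1993, 1740 and 1419 CPM. *Dynll1*, which encodes a dynein light chain, stood at 1051, 1051 and 1050 CPM. *Cav1*, encoding the caveolar protein that binds and inhibits the synthase, stood at 943, 613 and 694 CPM. None of these 3 was called. In PCV 24 of the 50 genes passed the filter, 1 was called higher and 1 lower (3.17% and 1.65% of all genes tested). *Pde2a*, a phosphodiesterase that cyclic GMP stimulates, was the higher one at 12.3, 28.2 and 33.7 CPM (16, 87 and 9 UMIs), and *Gchfr*, a regulator of cofactor synthesis, was the lower one at 88.9, 38.2 and 37.4 CPM. Both were named after their values were seen. In arterial EC 0 of 15 and in pericytes 0 of 7 tested genes of the list were called, where 1.81% and 6.82% of all genes tested were called higher and 2.72% and 0.64% lower. Counts this small are near these shares, and nothing is read from them about the list.

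The genes whose levels went most closely with each member were found over 35 pools of class and library with at least 20 cells, which share libraries and cells and give no test. On log2(CPM + 10), *Gucy1a1* went with *Ppp1r14a* (Pearson r = 0.82), *Prelp* (0.79), *Gucy1b1* (0.77) and *Serping1* (0.76) among 9876 genes. *Gucy1b1* went with *Emid1* (0.85), *Atp2a2* (0.84), *Ift43* (0.83) and *Ctdspl* (0.83). Within the 20 pools of blood EC alone the r between the 2 cyclase genes was 0.35. *Nos3* went with the endothelial genes *Pkn3* (0.92), *Ptprb* (0.90), *Tek* (0.90) and *Icam2* (0.90), and *Prkg1* with, among others, *Trpc1* (0.82), *Zc2hc1a* (0.81) and *Stbd1* (0.80).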

How the data were processed

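PP endothelial preparations were analysed by single-cell RNA sequencing in 1 control and 2 EC-iCOUP_OE libraries. The authors deposited UMI counts per gene and cell, made with Cell Ranger 3.0.2 (3.1.0 in the file header of EC-iCOUP_OE replicate 1) on mm10. The chemistry version of each library is not given in the sources used here. Cells were dropped if they had fewer than 500 genes, fewer than 1000 UMIs or over 10% of UMIs from mitochondrial genes, which left 5473, 4750 and 1243. Scrublet's automatic threshold marked few cells, so the top-scoring cells at a rate of 8 per 1000 for each 1000 recovered were left out instead (240, 180 and 12). Cells were integrated and clustered in Seurat 5.3.0 (2000 variable genes, 30 components, Louvain resolution 1), leaving the 7 genes, 50 further pathway genes, *Nr2f2*, *Madcam1* and sex-linked genes out of the variable genes. Clusters were named from marker lists and the study's labels, and 55 mixed blood EC were left out. UMIs were summed per class and library and divided by the class total. Ratios have exact conditional intervals, and a class with 0 UMIs was set to a floor of 3 UMIs. Genes with at least 50 UMIs in a library were called when both EC-iCOUP_OE libraries passed 2-fold in 1 direction, and sex-linked genes were left out. Counting intervals are not replicate error, and UMIs of 1 library are not replicates. The 2-fold call, the counting intervals and the thinning were tested on simulated counts. edgeR 4.0.16 (TMM) and DESeq2 1.42.0 supplied only alternative scaling factors. The members and lists were chosen with earlier results of these data known. Named genes were the 7 members, *Nr2f2*, pathway genes called in PP CapEC, the 6 pathway genes highest in control PP CapEC, the 4 genes most like each of *Gucy1a1*, *Gucy1b1*, *Nos3* and *Prkg1*, and mural markers beside a result. Some genes that this rule names are not reported here.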

Additional observations from a re-analysis of the deposited data

Results flagged for a closer look

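The *Gucy1a1* contrast differed in direction between cell classes. Its mean log2 ratio of EC-iCOUP_OE to control was 4.17 in PP CapEC and −0.75 in pericytes, a difference of 4.92, with both libraries above control in the first class and both below it in the second. Smooth muscle cells had a mean of 0.02 and so stood 0.78 above pericytes. The 39 control smooth muscle cells behind this value included 17 of a cluster that no other library had, with 9 of the 27 control UMIs. In the shared smooth muscle cluster the levels were 406, 315 and 309 CPM, so that both EC-iCOUP_OE libraries lay below control, as in pericytes. Neither difference was tested, since there was 1 control library, and the pericyte value rests on 26 control cells with 34 UMIs.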

How the results depend on the processing

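No paired analysis was possible because the single control library shares no replicate pair with the EC-iCOUP_OE libraries. In PP CapEC the mean log2 ratio of *Gucy1b1* (6.91) was 5.80 at Louvain resolution 0.6, 5.13 at 1.6, 5.46 with doublets kept, 5.26 without cells holding a mural UMI, 6.03 with cells thinned to 1000 UMIs, 4.06 over all blood EC neither venular nor dividing, and 2.77 in cluster 2 alone (1, 3 and 2 UMIs). Without cluster 2, an alternative chosen after seeing the data, it was 4.65. With 0 control UMIs (resolution 1.6, no mural UMI, without cluster 2) these are bounds against 3 UMIs. For *Gucy1a1* (4.17) the values were 4.42 at resolution 0.6, 3.49 with doublets kept, 3.37 thinned, 2.55 pooled, 0.77 in cluster 2, where the 2-fold rule was missed, and 4.49 without cluster 2. The pooled values (4.06 and 2.55) also take in arterial EC, CRP and the unnamed clusters. Among the latter are clusters 3, 11 and 14, whose labelled cells were mostly PP CapEC in the study. Leaving out either EC-iCOUP_OE replicate gave 6.42 to 7.40 and 4.06 to 4.28. The ratio of PCV to PP CapEC for *Gucy1a1* in replicate 1 (2.23) was 2.01 at resolution 0.6 and 2.51 thinned. The 252 genes called higher and 167 lower became 575 and 384 with a minimum of 10 UMIs, 743 and 473 with 1 UMI, and 51 and 57 in cluster 2 (chosen after seeing the data). Leaving out either replicate gave 262 to 503 higher and 363 to 372 lower. For *Pde3a* in smooth muscle (1.91) the smooth muscle cluster that all libraries shared, also chosen after seeing the data, gave 1.06 and no call. Unthinned shares of cells with *Gucy1b1* were 17.5% and 8.70%. Among these ratios 1 changed sign in an alternative, the uncalled *Gucy1a1* in PCV (mean −0.28), which was 0.00 without replicate 2. The cause of these shifts was not tested. Depth limits *Prkg1*, *Pde5a* and *Pde3a* in endothelium, and a single control library leaves the spread between controls unknown.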
